A study of Mus musculus with 6 samples.

Results

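DNA replication and S-phase genes were examined in C2C12 cells, a mouse myoblast line, after transfection with an siRNA against Usf2. The set comprises 47 genes chosen by symbol for their roles in origin licensing, the replicative helicase, the polymerases, the clamp and its loader, nucleotide supply and chromatin assembly. All 47 were found among the 55414 gene identifiers of the count table, and all 47 passed the filter on low counts. Each sample was total RNA from wild-type C2C12 myoblasts grown in serum-containing medium and transfected by lipofectamine. The 3 siControl libraries received the control siRNA labelled siRNA-NC, and the 3 siUsf2 libraries received siRNA-USF2. USF2 is a basic helix-loop-helix transcription factor that binds E-box sequences, and the series set out to find the genes affected by its knockdown. The labels give neither the time after transfection nor whether the replicates of a group were separate cultures, so the p-values reflect only how much these samples vary, and that variation may be technical.

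DNA replication begins when the origin recognition complex, CDC6 and CDT1 load the MCM2 to MCM7 ring onto origins in G1. Cyclin E and the CDC7-DBF4 kinase then turn that ring into an active helicase with CDC45 and GINS, after which primase and the polymerases copy DNA behind it. Many of these genes are targets of E2F factors. Their transcription is high in cycling myoblasts and is shut down when myoblasts leave the cell cycle to fuse into muscle fibres.

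Total counts ranged from 14790997 to 17715250 in 5 libraries, and the library labelled siUsf2 3 held 3414565. Pseudogenes took 14.0% to 15.3% of the counts in those 5 libraries and 0.974% in the library labelled siUsf2 3. Usf2 stood at 26.2, 31.2 and 23.03 CPM, the read count scaled to a common library total, in siControl 1 to 3, at 17.1 and 15.3 CPM in siUsf2 1 and 2, and at 30.8 CPM in the library labelled siUsf2 3. The Usf2 level of that library therefore lay within the siControl range and showed no knockdown. Usf2 and Usf1 together summed to 49.1 to 64.0 CPM in siControl and to 41.9 and 43.7 CPM in siUsf2 1 and 2. Their sum was 99.6 CPM in the library labelled siUsf2 3, above every siControl library, so Usf2 alone does not settle whether the label is right. The values below are those of the 5 other libraries unless 6 libraries are named. That library is printed apart, and it is not counted as a knockdown replicate. Of the 6 listed myoblast markers, Myod1 was at 253 to 303 CPM in siControl and Myf5 at 26.6 to 30.6 CPM. Des, Cdh15 and Chrna1 were at 1267 to 1607, 243 to 318 and 650 to 698 CPM there. Msc was near the floor, at 0.135 to 0.677 CPM. Summed markers of macrophages, endothelium, epithelium and adipocytes reached at most 3.37, 4.69, 0.621 and 2.93 CPM in any library, with Adgre1, Itgam, Krt18 and Lep at 0 throughout.

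Pseudogene copies matter for these genes, so their sequences come first. Alignment of annotated transcripts paired 11 processed pseudogenes with 10 of the 47 genes, at 90.1% to 99.2% identity. The middle 100 coding bases of Mcm7 (transcript Mcm7-201, coding positions 1029 to 1128, gene at chr5:138164583-138172422, minus strand, GRCm38) and the matching stretch of its copy Gm5487 (chr16:53983928-53986084, plus strand) differ at 6 bases. The same stretch of Pcna (Pcna-201, coding positions 342 to 441, gene at chr2:132249162-132253314, minus strand) and of Pcna-ps2 (chr19:9283380-9284160, plus strand) differ at 1 base. Capitals mark the bases that differ within each pair. Over their aligned length Gm5487 and Pcna-ps2 are 97.7% and 99.2% identical to their genes, toward the upper end of the range. How reads were divided between genes and copies was not tested.
Mcm7: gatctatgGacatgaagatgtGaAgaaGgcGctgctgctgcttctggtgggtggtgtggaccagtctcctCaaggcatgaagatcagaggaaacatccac
Gm5487: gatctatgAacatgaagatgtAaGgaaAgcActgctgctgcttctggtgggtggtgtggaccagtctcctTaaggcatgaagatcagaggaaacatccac
Pcna: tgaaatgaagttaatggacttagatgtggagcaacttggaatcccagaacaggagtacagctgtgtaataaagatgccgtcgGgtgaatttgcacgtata
Pcna-ps2: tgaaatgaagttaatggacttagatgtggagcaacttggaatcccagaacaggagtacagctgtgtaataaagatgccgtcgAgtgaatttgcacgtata

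Of the 47 replication genes, 4 rose in siUsf2 1 and 2, 0 fell and 43 did not pass the test. The kinase activator Dbf4, the leading-strand polymerase gene Pole, the primase gene Prim1 and the chromatin assembly gene Chaf1a were those that rose, by 1.35-fold to 1.47-fold. In the 5 libraries edgeR called 4 of the 47 genes higher (8.51%), against 4.97% of the 17217 genes tested, so the share of called genes lay not far above that of all genes. It called 0 of the 47 lower, against 6.4% of all genes, and none of the 47 was lower at an unadjusted p below 0.05, although 13.6% of all genes were. DESeq2 called 3 members higher (Dbf4, Pole and Chaf1a) and 0 lower, against 4.25% and 5.41% of all genes, and limma-voom called the same 4 as edgeR higher and 0 lower, against 4.77% and 5.68%. At an unadjusted p below 0.05 edgeR placed 17 of the 47 higher, against 11.3% of all genes. The log2 fold change was above 0 for 42 of the 47 genes (89.4%), against 48.8% of all genes tested. The median log2 fold change of the 47 was 0.22, against -0.01 for all genes tested. Both siUsf2 1 and siUsf2 2 lay above every siControl library for 28 of the 47 genes, against 21.8% of all genes, and both lay below every siControl library for 0 of the 47, against 19.5% of all genes.

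**Figure D1:**
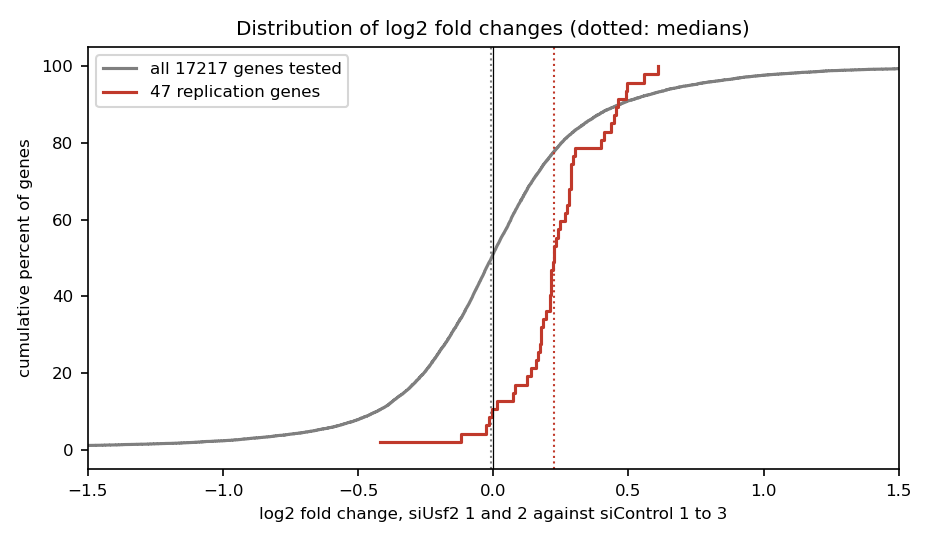
Cumulative percent of genes (vertical axis) by log2 fold change of siUsf2 1 and 2 against siControl 1 to 3 (horizontal axis), for all 17217 genes tested and for the 47 replication genes. The curve of the replication genes lies to the right over most of its length, with medians (dotted) of 0.22 and -0.01, but it spans only -0.42 to 0.61.

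Medians were also taken library by library. The median log2 ratio of the 47 genes to their siControl mean (CPM plus a pseudocount of 0.1) was 0.27 in siUsf2 1, 0.21 in siUsf2 2 and 0.64 in the library labelled siUsf2 3, against 0.01, -0.01 and -0.02 for all genes tested. With the counts of pseudogene copies added to their parent genes, described further on, the median of the 47 in the library labelled siUsf2 3 was 0.34. With all 6 libraries the median log2 fold change of the 47 genes was 0.38 and that of all genes was -0.01, with 46 of the 47 genes above 0 against 48.2% of all genes. No member passed the edgeR test there. The edgeR counts of called members were 0 higher and 0 lower, against 0% and 0.042% of 16662 genes tested, with 14 members higher and 0 lower at an unadjusted p below 0.05 (5.32% and 5.2% of all genes). With 6 libraries DESeq2 called Dbf4 alone higher (adjusted p = 0.00981) and 0 lower, against 1.78% and 2.46% of all genes, and limma-voom called 0 higher and 0 lower, against 0.114% and 0.51%. All 3 libraries labelled siUsf2 lay above every siControl library for 26 of the 47 genes, against 11.4% of all genes, and all 3 below for 0, against 11.2%. The library labelled siUsf2 3 by itself lay above every siControl library for 43 of the 47 genes, against 39.6% of all genes, and below for Cdc7, Ung and Fen1, against 42.1%. These counts of 46, 26 and 43 genes leave out pseudogene copies. The 43 include all 10 genes with paired copies. With copies added, 3 of those 10 lay above every siControl library in the library labelled siUsf2 3 and 5 lay below. The biological coefficient of variation was 9.25% in the 5 libraries and 40.0% in the 6.

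**Figure D2:**
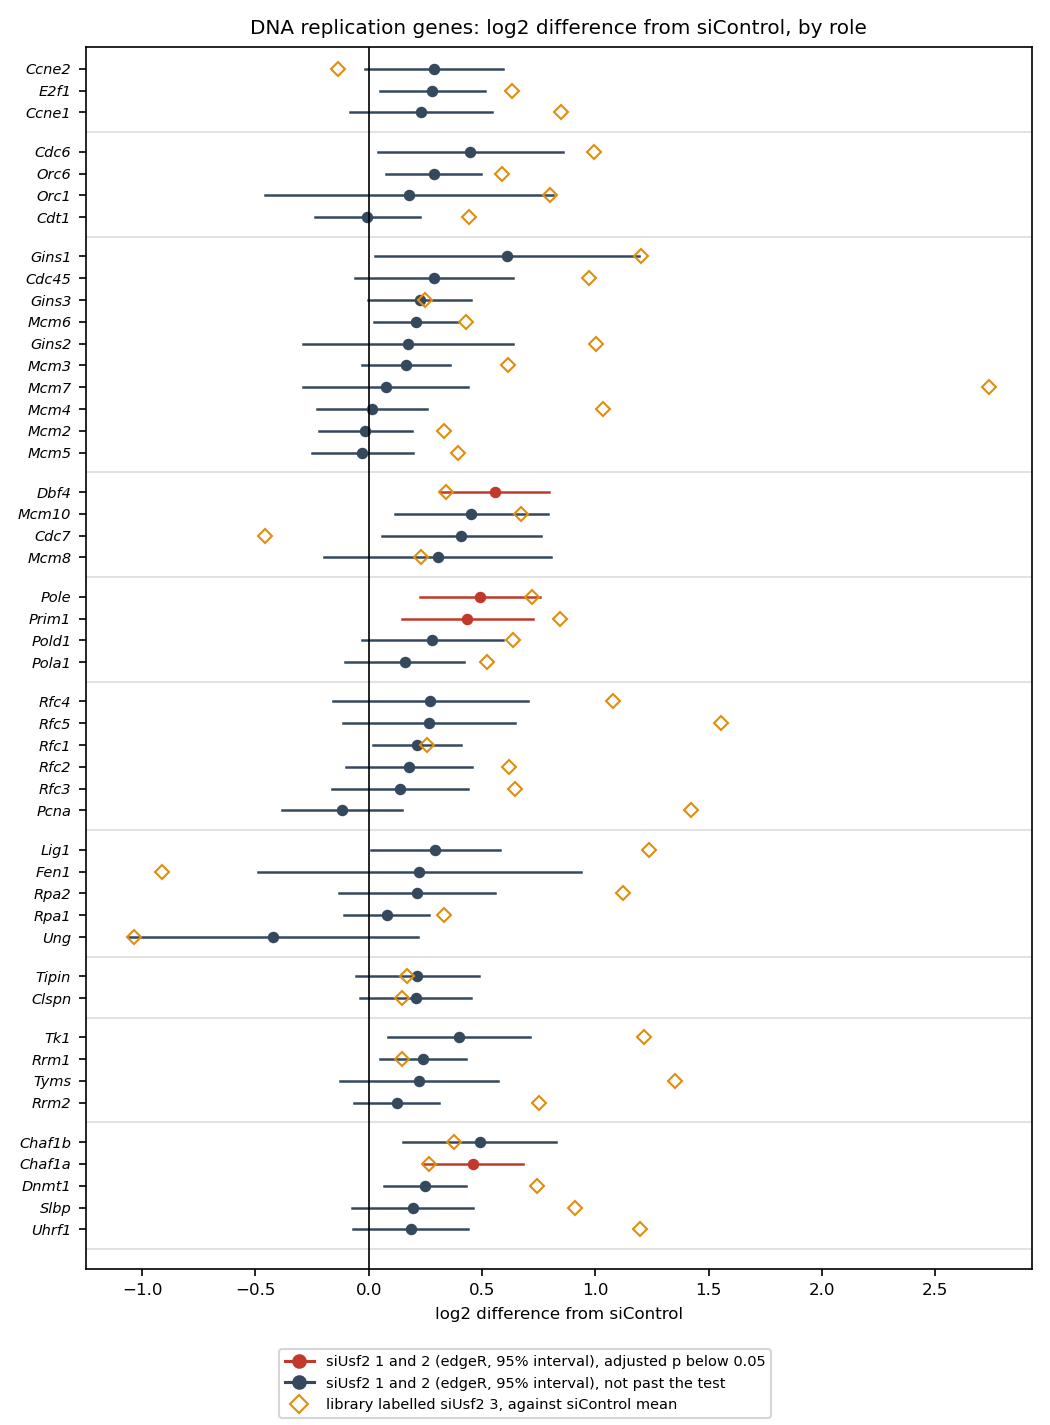
Log2 difference from siControl (horizontal axis) of the 47 replication genes, grouped by role in the order of the text. Filled circles with lines are edgeR log2 fold changes of siUsf2 1 and 2 with 95% intervals (red: adjusted p below 0.05), and open diamonds are the library labelled siUsf2 3 against the siControl mean. Most circles lie right of 0 with intervals that reach it, and the diamonds scatter from -1.03 (Ung) to 2.74 (Mcm7).

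Cells of the siUsf2 1 and 2 libraries also held less RNA of differentiated muscle genes. All 10 listed markers of differentiated muscle cells fell in the 5 libraries, and their summed level was 3964 to 4172 CPM in siControl, 974 and 1066 CPM in siUsf2 1 and 2, and 2132 CPM in the library labelled siUsf2 3. In that library 3 of the 10, Mylpf, Tnnt3 and Actn3, lay above every siControl library, at 187, 92.8 and 283 CPM. The others, Myog, Mymk, Mymx, Myh3, Acta1, Ckm and Myh8, lay below every siControl library there. Myog was at 522 CPM in that library, against 918 to 1156 CPM in siControl. Mymk, the fusion protein myomaker, had a log2 fold change of -2.39 (± 0.10 SE, BH-adjusted p = 7.3e-17 by edgeR) and of -2.07 (± 0.25 SE, BH-adjusted p = 0.0694 by edgeR) with 6 libraries, where none of the 10 passed. Among the 5 listed myoblast markers tested in the 5 libraries, 4 fell and 1 rose, while Msc was too low to test. Chrna1, Cdh15, Des and Myod1 were at -0.77, -0.75, -0.35 and -0.29, and Myf5, which marks undifferentiated myoblasts, at 0.37. Whether the fall of those 4 belongs with that of the differentiated muscle genes was not tested, so it is not read as a loss of myoblasts. The part of these changes in the shift of the replication genes was not tested, and in bulk RNA a different number of cycling cells and a different amount of RNA per cell cannot be told apart.

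The G1/S control genes, whose products start S phase, were above every siControl library in siUsf2 1 and 2, but none of the 3 passed the test. E2f1, the transcription factor that activates replication genes, was at 32.9, 35.7 and 29.4 CPM in siControl 1 to 3, at 42.4 and 37.6 CPM in siUsf2 1 and 2, and at 50.7 CPM in the library labelled siUsf2 3. Its values in siUsf2 1 and 2 lay above siControl, with a log2 fold change of 0.28 (± 0.11 SE, BH-adjusted p = 0.108 by edgeR), and of 0.38 (± 0.13 SE, BH-adjusted p = 0.394 by edgeR) with 6 libraries. Ccne1 and Ccne2 encode cyclin E1 and cyclin E2, which drive CDK2 at the G1/S transition. Their log2 fold changes were 0.23 (SE 0.15) and 0.29 (SE 0.15). They parted in the library labelled siUsf2 3, where Ccne1 was at 26.1 CPM, above the 12.8 to 15.6 CPM of siControl, and Ccne2 at 15.2 CPM, within the 13.7 to 18.7 CPM of siControl.

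Of the 4 genes of origin recognition and licensing, none passed, with log2 fold changes of -0.01 to 0.45. Orc6, the smallest subunit of the origin recognition complex, was at 42.4, 40.9 and 38.9 CPM in siControl, at 50.5 and 49.6 CPM in siUsf2 1 and 2, and at 61.2 CPM in the library labelled siUsf2 3. Both siUsf2 1 and 2 were above siControl, and the 5-library log2 fold change of 0.29 (± 0.10 SE, BH-adjusted p = 0.0661 by edgeR) fell short of the test, as did that of 0.36 (± 0.10 SE, BH-adjusted p = 0.277 by edgeR) with 6 libraries. Orc1, the ATPase subunit, had only 2.19 to 3.72 CPM in siControl and a log2 fold change of 0.18 with a wide 95% interval of -0.46 to 0.81. Cdc6, the ATPase that loads MCM with CDT1, was at 7.17, 8.62 and 6.55 CPM in siControl and at 11.8 and 8.64 CPM in siUsf2 1 and 2, so its lower siUsf2 value lay just above the highest siControl value. Cdt1 showed no such shift, at 31.7 to 39.2 CPM in siControl and 35.5 and 35.8 CPM in siUsf2 1 and 2, a log2 fold change of -0.01 (95% interval -0.24 to 0.23).

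None of the 10 helicase genes passed. Among Mcm2 to Mcm7, the ring that unwinds DNA, Mcm2, Mcm4, Mcm5 and Mcm7 had log2 fold changes of -0.01, 0.01, -0.03 and 0.07, with 95% intervals no higher than 0.44 at their upper ends. Mcm3 and Mcm6 had log2 fold changes of 0.17 and 0.21, and both siUsf2 libraries lay above siControl for each. Mcm6 was at 78.5, 81.2 and 84.8 CPM in siControl, at 91.3 and 98.8 CPM in siUsf2 1 and 2, and at 109.8 CPM in the library labelled siUsf2 3 (BH-adjusted p = 0.146 by edgeR, and 0.372 with 6 libraries). Much of the signal of Mcm4 and Mcm7 lay on their pseudogene copies, 59.3% and 87.1% in siControl. With the copies added their log2 fold changes were 0.17 (SE 0.09) and 0.21 (SE 0.09), near those of Mcm3 and Mcm6, and both siUsf2 sums lay above every siControl sum, for Mcm4 at 90.8 and 90.2 CPM against 75.0 to 85.1 CPM. The difference between the subunits was not tested. Cdc45, the subunit that joins the ring at firing, was at 0.29 (SE 0.17). The GINS subunit genes Gins1, Gins2 and Gins3 were at 0.61 (SE 0.29), 0.17 (SE 0.23) and 0.22 (SE 0.11). Gins1 had the largest log2 fold change of the 47 genes but only 2.31 to 3.04 CPM in siControl, against 4.24 and 4.22 CPM in siUsf2 1 and 2, and its 95% interval ran from 0.03 to 1.19. Gins2 shares 67.3% of its annotated exon bases with Gse1 on the opposite strand, and no source used here states whether counting used strand, so its level is uncertain. Of the 47 genes 16 share exon bases with another gene, 3 of them over 50%. Orc6 shares 6.93% with Vps35, at 340 to 372 CPM in siControl, and Rfc4 12.7% with Eif4a2, at 197 to 206 CPM. Both partners are on the opposite strand and far higher, so the same uncertainty holds for Orc6 and Rfc4.

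Among the genes of origin firing, Dbf4, the regulatory subunit that activates the CDC7 kinase (ENSMUSG00000002297, chr5:8396973-8422716 on the minus strand of GRCm38, up to 12 exons per transcript), rose. It was at 23.5, 22.4 and 22.6 CPM in siControl 1 to 3, at 35.3 and 32.4 CPM in siUsf2 1 and 2, and at 29.0 CPM (95% Poisson interval 23.6 to 35.3, counting error only) in the library labelled siUsf2 3. Every siControl value of Dbf4 was below those of siUsf2 1 and 2, and the library labelled siUsf2 3 lay between the groups. The mean went from 22.8 ± 0.596 CPM (SD, n = 3) to 33.9 ± 2.07 CPM (SD, n = 2). The log2 fold change was 0.56 (± 0.12 SE, BH-adjusted p = 0.00177 by edgeR), and was 0.47 (± 0.12 SE, BH-adjusted p = 0.255 by edgeR) over 6 libraries. Without siUsf2 1 the Dbf4 call ended (BH-adjusted p = 0.0581 by edgeR). Over 14 alternatives its adjusted p ranged from 1.39e-04 to 0.0581.

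Cdc7, the catalytic partner of Dbf4, was at 10.1, 13.9 and 9.88 CPM in siControl and at 14.9 and 15.3 CPM in siUsf2 1 and 2, with a log2 fold change of 0.41 (± 0.17 SE, BH-adjusted p = 0.123 by edgeR). In the library labelled siUsf2 3 Cdc7 was at 8.20 CPM (95% Poisson interval 5.45 to 11.9), below every siControl library. That interval reached into the siControl range. Mcm10, which is needed to start unwinding, had a log2 fold change of 0.45 (± 0.17 SE, BH-adjusted p = 0.0731 by edgeR), with 14.5 and 14.3 CPM in siUsf2 1 and 2 against 9.80 to 11.6 CPM in siControl. Mcm8, an MCM relative that acts in recombination, was at 0.30 (SE 0.24) from a low level of 4.73 ± 0.787 CPM (SD, n = 3).

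**Figure D3:**
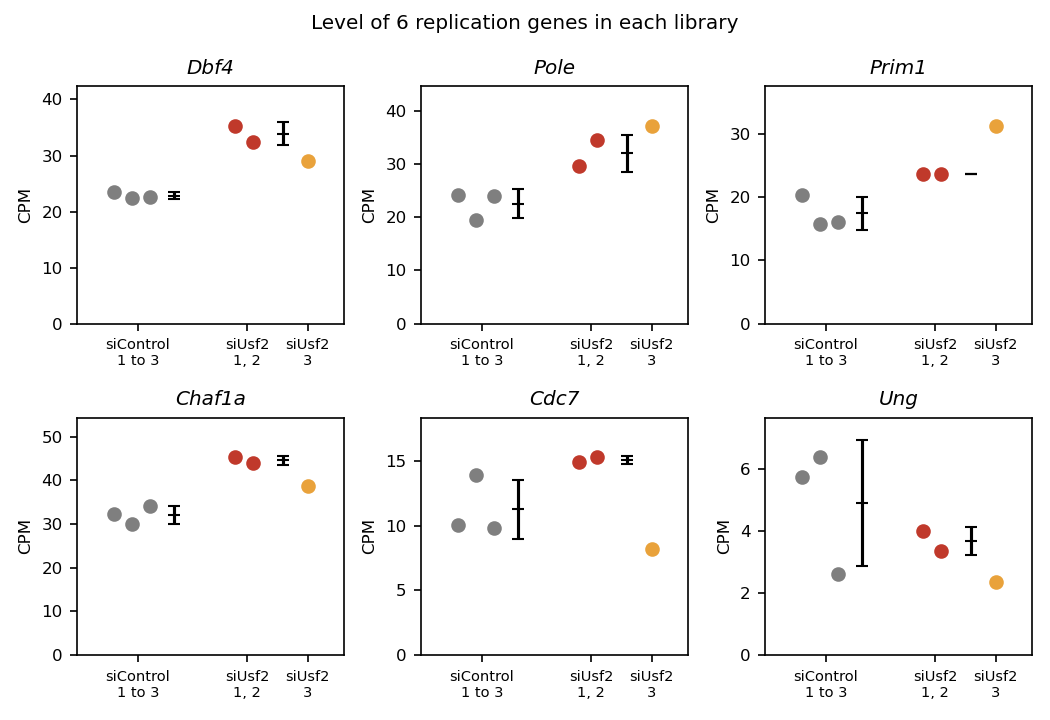
CPM (vertical axes, from 0) of 6 replication genes in each library, with mean and SD bars beside siControl 1 to 3 (n = 3) and siUsf2 1 and 2 (n = 2), and the library labelled siUsf2 3 apart. Dbf4, Pole, Prim1 and Chaf1a were higher in siUsf2 1 and 2 than in any siControl library, whereas for Cdc7 the library labelled siUsf2 3 was the lowest at 8.20 CPM, as it was for Ung at 2.34 CPM.

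Both genes called among the polymerases and primase encode catalytic subunits. Pole, the catalytic subunit of the leading-strand polymerase epsilon (ENSMUSG00000007080, chr5:110286306-110337474 on the plus strand of GRCm38, up to 49 exons per transcript), was at 24.2, 19.4 and 23.9 CPM in siControl, at 29.5 and 34.4 CPM in siUsf2 1 and 2, and at 37.2 CPM in the library labelled siUsf2 3. Every siControl value of Pole was lower than siUsf2 1 and 2. Its log2 fold change was 0.49 (± 0.13 SE, BH-adjusted p = 0.0117 by edgeR) in the 5 libraries and 0.55 (± 0.14 SE, BH-adjusted p = 0.264 by edgeR) in the 6. The Pole call ended without siControl 2 (BH-adjusted p = 0.0824 by edgeR) and without siUsf2 2 (BH-adjusted p = 0.224 by edgeR), and its adjusted p over 14 alternatives ranged from 4.56e-04 to 0.224.

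Prim1, the primase subunit that makes RNA primers (ENSMUSG00000025395, chr10:128015168-128030037 on the plus strand of GRCm38, up to 13 exons per transcript), was at 20.42, 15.81 and 16.03 CPM in siControl, at 23.7 CPM in both siUsf2 1 and 2, and at 31.3 CPM in the library labelled siUsf2 3. These values of siUsf2 1 and 2 exceeded siControl, where siControl 1 was the highest. The log2 fold change of Prim1 was 0.43 (± 0.14 SE, BH-adjusted p = 0.0431 by edgeR) in the 5 libraries and 0.55 (± 0.17 SE, BH-adjusted p = 0.33 by edgeR) in the 6. It lost its call without siControl 2, siUsf2 1 or siUsf2 2 (BH-adjusted p = 0.166, 0.18 and 0.186 by edgeR) and with DESeq2 (adjusted p = 0.0652), and its adjusted p over 14 alternatives ranged from 0.0258 to 0.186. Pold1, the catalytic subunit of the lagging-strand polymerase delta, and Pola1, the polymerase that extends primers, had log2 fold changes of 0.28 (SE 0.15) and 0.16 (SE 0.13) and did not pass.

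The sliding clamp and its loader gave no call. Pcna, the clamp that holds polymerases on DNA, was at 23.4, 28.8 and 24.0 CPM in siControl and at 23.1 and 24.1 CPM in siUsf2 1 and 2. These groups overlapped, with a log2 fold change of -0.12 (SE 0.13). Rfc1, the large subunit of the clamp loader, was at 60.7, 56.7 and 58.1 CPM in siControl, at 66.6 and 70.4 CPM in siUsf2 1 and 2, and at 70.0 CPM in the library labelled siUsf2 3. Both siUsf2 1 and 2 lay above siControl for Rfc1, although its log2 fold change of 0.21 (± 0.10 SE, BH-adjusted p = 0.149 by edgeR) did not pass. The smaller subunit genes Rfc2, Rfc3, Rfc4 and Rfc5 had log2 fold changes of 0.14 to 0.27.

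Among the genes for single-strand binding, flap removal, ligation and uracil removal none passed. Rpa1, the large subunit of the single-strand binding protein RPA, was at 77.3, 82.8 and 78.1 CPM in siControl, at 88.6 and 80.8 CPM in siUsf2 1 and 2, and at 100.2 CPM in the library labelled siUsf2 3. The siUsf2 2 value fell within the siControl range, and the log2 fold change was 0.08 (95% interval -0.11 to 0.27). Rpa2, a smaller RPA subunit, was at 0.21 (SE 0.17). Lig1, the ligase that joins Okazaki fragments, was at 19.5, 19.1 and 15.7 CPM in siControl, at 21.9 and 22.8 CPM in siUsf2 1 and 2, and at 42.8 CPM in the library labelled siUsf2 3, with 0.29 as the 5-library log2 fold change (± 0.14 SE, BH-adjusted p = 0.182 by edgeR). The last library was far above the others for Lig1.

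Ung and Fen1, like Cdc7, lay below every siControl library in the library labelled siUsf2 3. Their 95% Poisson intervals there were 1.01 to 4.62 CPM for Ung and 0.319 to 3.00 CPM for Fen1. Both reached into the siControl range, as did that of Cdc7. Ung, the glycosylase that removes uracil from DNA, had the lowest log2 fold change of the 47 genes at -0.42 (95% interval -1.06 to 0.22) in the 5 libraries. It was at 5.75, 6.37 and 2.60 CPM in siControl, at 3.98 and 3.35 CPM in siUsf2 1 and 2, and at 2.34 CPM in the library labelled siUsf2 3. The groups overlapped through siControl 3, and without that library Ung was called lower, at a log2 fold change of -0.72 (BH-adjusted p = 0.0435 by edgeR). Fen1, the flap endonuclease of lagging-strand synthesis, had only 1.52 to 3.06 CPM in the 5 libraries and 1.17 CPM in the library labelled siUsf2 3. Its annotated exons share 84.2% of their bases with other genes, mainly Gm10143 on the opposite strand, and reads in such overlaps may not have been counted, so its level is uncertain.

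Clspn and Tipin, which link the fork to the checkpoint kinase, did not pass. Clspn, the claspin adaptor, was at 27.9, 24.5 and 27.7 CPM in siControl, at 30.2 and 32.0 CPM in siUsf2 1 and 2, and at 29.6 CPM in the library labelled siUsf2 3, so that siUsf2 1 and 2 were above siControl by a small margin. Its log2 fold change was 0.21 (SE 0.12), and that of Tipin, the partner of TIMELESS, was 0.21 (SE 0.13).

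None of the 4 genes of nucleotide supply passed. Rrm1, the large subunit of ribonucleotide reductase, which makes deoxynucleotides, was at 108.4, 115.4 and 127.9 CPM in siControl, at 134.2 and 145.5 CPM in siUsf2 1 and 2, and at 129.7 CPM in the library labelled siUsf2 3. For Rrm1 siUsf2 1 and 2 were above siControl, with a log2 fold change of 0.24 (± 0.09 SE, BH-adjusted p = 0.0894 by edgeR), and of 0.19 (± 0.10 SE, BH-adjusted p = 0.616 by edgeR) with 6 libraries. Without siControl 3, the highest siControl library for Rrm1, it was called higher (BH-adjusted p = 0.00405 by edgeR). Its partner Rrm2, whose level limits the enzyme in S phase, was at 0.12 (SE 0.09). Tk1, the salvage kinase for thymidine, was at 0.40 (± 0.15 SE, BH-adjusted p = 0.0921 by edgeR), and Tyms, which makes thymidylate, at 0.22 (SE 0.17).

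In chromatin assembly, Chaf1a, the large subunit of CAF-1, which deposits histones behind the fork (ENSMUSG00000002835, chr17:56040439-56072289 on the plus strand of GRCm38, up to 14 exons per transcript), rose. It was at 32.3, 30.0 and 34.0 CPM in siControl, at 45.3 and 43.9 CPM in siUsf2 1 and 2, and at 38.7 CPM (95% Poisson interval 32.3 to 45.8) in the library labelled siUsf2 3. Chaf1a in siUsf2 1 and 2 was above siControl, and the library labelled siUsf2 3 lay between the groups. The mean went from 32.1 ± 2.03 CPM (SD, n = 3) to 44.6 ± 1.04 CPM (SD, n = 2). The log2 fold change was 0.46 (± 0.11 SE, BH-adjusted p = 0.00484 by edgeR), and was 0.38 (± 0.12 SE, BH-adjusted p = 0.333 by edgeR) over 6 libraries. Without siUsf2 1 the Chaf1a call ended (BH-adjusted p = 0.0653 by edgeR), and over 14 alternatives its adjusted p ranged from 7.62e-05 to 0.0653. Exons of Chaf1a share 52.5% of their bases with Ubxn6 on the opposite strand. Ubxn6 moved the other way in the 5 libraries, with a log2 fold change of -0.63 (± 0.17 SE, BH-adjusted p = 0.0178 by edgeR), and reads of the pair cannot be told apart where strand was not used.

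Chaf1b, the middle subunit of CAF-1, came closest to the test among the other members, at 14.7 and 14.1 CPM in siUsf2 1 and 2 against 9.60 to 10.9 CPM in siControl. Its log2 fold change was 0.49 (± 0.17 SE, BH-adjusted p = 0.0514 by edgeR). Dnmt1, the methyltransferase that copies DNA methylation, was at 90.4, 88.6 and 83.4 CPM in siControl, at 107.3 and 102.3 CPM in siUsf2 1 and 2, and at 146.4 CPM in the library labelled siUsf2 3. For Dnmt1 siUsf2 1 and 2 lay above siControl, at a log2 fold change of 0.25 (± 0.09 SE, BH-adjusted p = 0.0691 by edgeR). Uhrf1, which brings DNMT1 to replicated DNA, and Slbp, which binds the stem-loop of histone mRNAs, were both at 0.19 (SE 0.12 and 0.13).

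Levels were also set per kilobase of exon, for a rough comparison between genes. The length is that of all exon bases annotated for a gene over all its transcripts, so it can exceed the length of any single transcript. The order therefore depends on the annotation. Rrm1, at 117 CPM in siControl, was divided by 11012 bases and came to 10.6 CPM per kb, whereas Rrm2, at 77.6 CPM, was divided by 2771 bases. On this scale Rrm2, at 28.0 CPM per kb in siControl, was the highest of the 47 genes, followed by Mcm6 at 17.5 and Orc6 at 16.5 CPM per kb, while Orc1, Ung and Fen1 were the lowest at 0.858, 0.897 and 0.947 CPM per kb. These levels leave out reads on pseudogene copies, and the order turns when those are counted with the gene over the gene's exon length. Pcna then stood at 47.0 and Rrm2 at 43.8 CPM per kb, and Mcm7, at 2.18 CPM per kb on the gene alone, at 17.0 CPM per kb.

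Such copies held much of the signal of 10 replication genes in the 5 libraries. Between 13.7% and 88.9% of the summed counts of gene and copies lay on the copies there, whereas in the library labelled siUsf2 3 the share was 0% for 7 of the 10 genes, 0.223% for Rrm2, 1.09% for Rfc5 and 23.9% for Pcna. Mcm7 shows the contrast most clearly. The Mcm7 gene itself was at 9.40, 9.93 and 9.65 CPM in siControl, at 10.7 and 9.84 CPM in siUsf2 1 and 2, and at 65.0 CPM in the library labelled siUsf2 3, far above the rest. Its copy Gm5487, shown above, held 63.6, 71.8 and 60.9 CPM in siControl, 77.0 and 78.6 CPM in siUsf2 1 and 2, and 0 CPM in the library labelled siUsf2 3. Together they stood at 72.9, 81.8 and 70.6 CPM in siControl, at 87.7 and 88.4 CPM in siUsf2 1 and 2, and at 65.0 CPM in the library labelled siUsf2 3. The summed level thus put that library lowest, where the gene alone had put it highest.

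**Figure D4:**
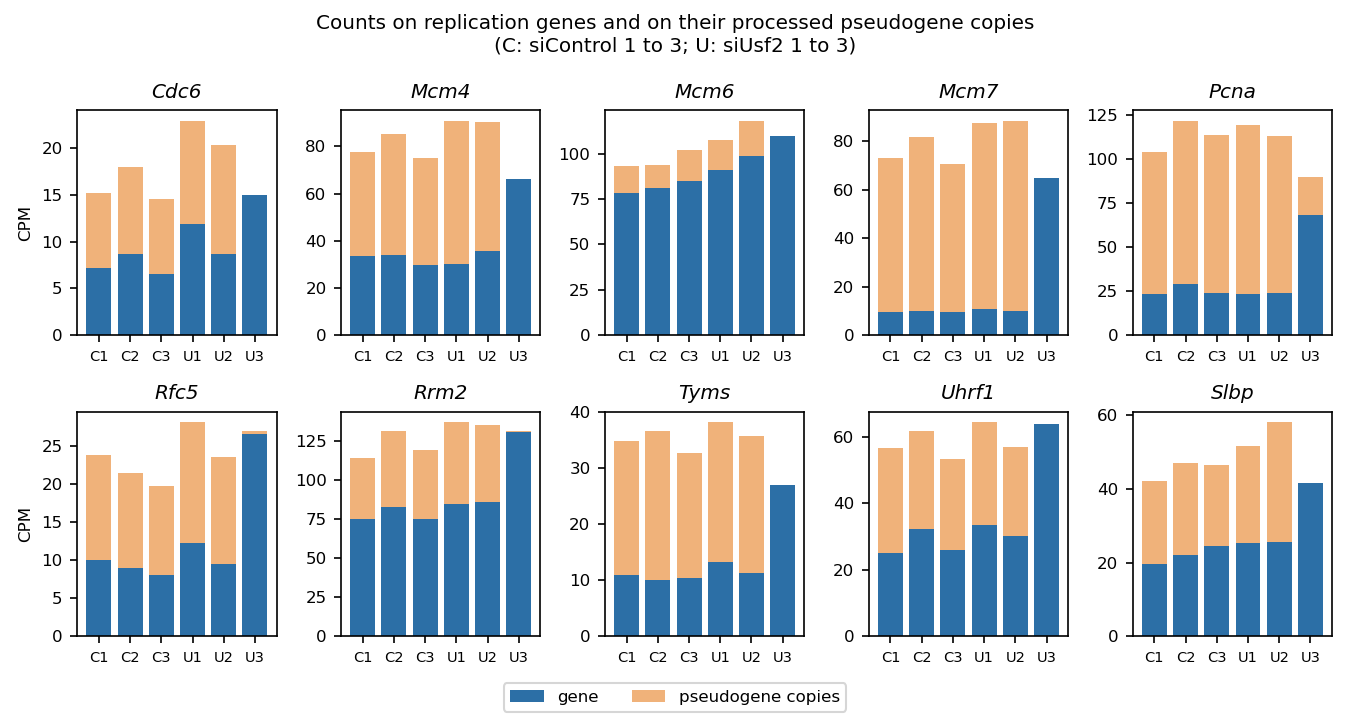
Stacked CPM (vertical axes, from 0) of 10 replication genes (blue) and of their processed pseudogene copies (orange) in each library, C1 to C3 for siControl and U1 to U3 for siUsf2. Copies take 13.7% to 88.9% of each bar in 5 libraries and little or nothing in the library labelled siUsf2 3.

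Pcna behaved similarly, at 68.2 CPM on the gene in the library labelled siUsf2 3 against 23.1 to 28.8 CPM elsewhere, and at 89.6 CPM with Pcna-ps2 added against 103.8 to 121.3 CPM in siControl. On the genes alone the library labelled siUsf2 3 also stood highest for Mcm4 (66.2 CPM, against 29.6 to 35.8 CPM in the other 5), Rfc5 (26.7 against 8.07 to 12.3 CPM), Tyms (26.9 against 10.1 to 13.3 CPM), Uhrf1 (63.8 against 25.1 to 33.4 CPM) and Slbp (41.6 against 19.5 to 25.6 CPM). For Tyms, Mcm4 and Slbp the sums with copies in that library were 26.9, 66.2 and 41.6 CPM, each below every siControl sum. Rfc5, Mcm6 and Uhrf1 stayed above every siControl sum with their copies added, at 26.9, 109.8 and 63.8 CPM. Cdc6 and Rrm2 fell within the siControl range. Over the 10 genes, the median log2 ratio of the library labelled siUsf2 3 to the siControl mean was 1.12 for the gene alone and -0.10 with copies added, while the 37 genes without paired copies had a median of 0.59.

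**Figure D5:**
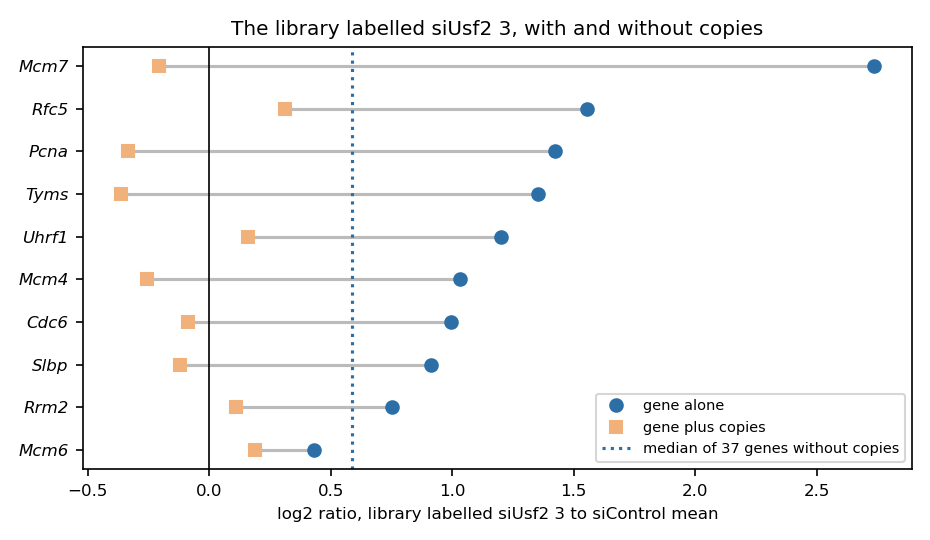
Log2 ratio of the library labelled siUsf2 3 to the siControl mean (horizontal axis) for 10 replication genes, as the gene alone (circles) and with pseudogene copies added (squares). Circles reach 2.74 (Mcm7) and squares lie between -0.36 (Tyms) and 0.31 (Rfc5), below the median of 0.59 (dotted) of the 37 genes without copies.

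In siUsf2 1 and 2 the copies added moved single genes in both directions. The log2 fold change in the 5 libraries went from 0.01 to 0.17 for Mcm4 and from 0.07 to 0.21 for Mcm7, and from 0.22 to 0.07 for Tyms and from 0.19 to 0.07 for Uhrf1, none of which passed. The median of the 10 genes was 0.19 with and without copies, and that of all 47 went from 0.22 to 0.22. Over 6 libraries the median of the 10 went from 0.55 to 0.10, and that of all 47 from 0.38 to 0.28. Cdc6 with its copy Gm9430 was called higher in the 5 libraries, at a log2 fold change of 0.43 (± 0.14 SE, BH-adjusted p = 0.0446 by edgeR), and was at 0.29 (± 0.19 SE, BH-adjusted p = 0.587 by edgeR) in the 6. Pcna turned from -0.12 to 0.02 in the 5 libraries. The copies themselves had log2 fold changes of -0.04 (Gm5648, of Uhrf1) to 0.42 (Gm9430), none of which passed.

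Gene structure also moved with the library labelled siUsf2 3. Over 4 equal groups of all genes ordered by exons per kilobase, its median log2 ratio to siControl was -0.34, -0.11, 0.08 and 0.30. The replication genes fell mostly into the upper groups, with 1, 10, 11 and 25 members, and had medians of 0.25, 0.48, 0.64 and 0.72 there. Within each group the median of the replication genes was thus above that of all genes, though the lowest group holds only 1 member. These medians leave out pseudogene copies, which lower the median of all 47 genes in that library from 0.64 to 0.34 when added. The part of exon density in their level was not tested.

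Other genes of replication were counted in lists that leave out the 47. The counts of this list and of those that follow stand beside 4.97% called higher and 6.4% called lower among all 17217 genes tested. In lists this short, such shares rest on few genes. By edgeR in the 5 libraries, 4 of 37 other replisome and origin genes rose and 0 fell, while 33 did not reach the threshold, and their median log2 fold change was 0.07. Those 4 were Wdhd1, which couples helicase and polymerase alpha, at 0.55 (± 0.14 SE, BH-adjusted p = 0.00836 by edgeR), Topbp1, an activator of firing and of the ATR checkpoint, at 0.36 (SE 0.10), Mms22l, of replication fork repair, at 0.48 (SE 0.15), and Ticrr, the origin firing factor treslin, at 0.46 (SE 0.15). Wdhd1 was at 14.7 to 16.5 CPM in siControl, at 23.6 and 22.4 CPM in siUsf2 1 and 2, and at 26.1 CPM in the library labelled siUsf2 3. Both siUsf2 1 and 2 were above siControl for Wdhd1, whose log2 fold change with 6 libraries was 0.59 (± 0.11 SE, BH-adjusted p = 0.167 by edgeR). With 6 libraries none of the genes in these other replication, nucleotide, chromatin, G1/S and histone lists passed.

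Of 22 other genes of nucleotide supply, 0 rose and 1 fell, with a median of -0.02. The gene that fell was Nme1, a nucleoside diphosphate kinase, at a log2 fold change of -0.54 (± 0.14 SE, BH-adjusted p = 0.0125 by edgeR). Of 16 other genes of chromatin assembly and DNA methylation, 2 rose and 1 fell, with a median of 0.13. Hells, a chromatin remodeller needed for DNA methylation, and Pclaf, a PCNA-binding factor, rose by 0.39 (SE 0.11) and 0.48 (SE 0.14) on the log2 scale, and Rbbp4, a histone chaperone shared by several complexes, fell to -0.27 (± 0.09 SE, BH-adjusted p = 0.0443 by edgeR). In the library labelled siUsf2 3 Rbbp4 had 339 CPM, against 122 to 126 CPM in siControl, so its sign turned over 6 libraries, to 0.50 (SE 0.50).

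The 28 other genes of G1/S control went both ways, with 5 that rose, 3 that fell, 20 that did not pass and a median of 0.14. E2f2, an activating E2F, was at 121, 118 and 105 CPM in siControl, at 55.6 and 65.5 CPM in siUsf2 1 and 2, and at 84.6 CPM in the library labelled siUsf2 3. Both siUsf2 1 and 2 were below siControl for E2f2, at a log2 fold change of -0.94 (± 0.10 SE, BH-adjusted p = 5.73e-08 by edgeR), and -0.78 (± 0.16 SE, BH-adjusted p = 0.171 by edgeR) with 6 libraries, while its relative E2f1 was at 0.28. E2f7, a repressive E2F, rose by 0.54 on the log2 scale (± 0.11 SE, BH-adjusted p = 0.00113 by edgeR). Ccnd3, the cyclin D that accumulates in differentiating myoblasts, and E2f4, the E2F of resting cells, fell, to log2 fold changes of -0.73 (SE 0.11) and -0.36 (SE 0.10). The library labelled siUsf2 3 did not share the rise of E2f7, at 26.7 CPM, just below the 27.7 to 29.6 CPM of siControl. It went the other way for Ccnd3, at 210 CPM against 91.4 to 125 CPM.

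Histone genes were taken by symbol, since SLBP binds the mRNAs of the replication-dependent ones, and were mostly too low to test. The list holds 70 genes with symbols starting Hist1h, Hist2h, Hist3h or Hist4h. It includes the pseudogene Hist3h2bb-ps, and not every gene on it need depend on replication. Of the 70, 14 were tested in the 5 libraries, with a median log2 fold change of -0.47. Among the 14, 0 rose and 2 fell, against 4.97% and 6.4% of all genes tested. The 2 that fell were Hist1h1c and Hist1h2bc, at -0.71 (± 0.10 SE) and -0.63 (± 0.19 SE), with adjusted p of 1.46e-05 and 0.028 by edgeR. Hist1h1c was at 74.6 to 88.2 CPM in siControl, at 46.0 and 55.0 CPM in siUsf2 1 and 2, and at 70.9 CPM in the library labelled siUsf2 3. The median of the tested histone genes had the opposite sign to that of the 47 replication genes, but it rests mostly on genes near the floor. Apart from Hist1h1c and Hist1h2bc, the tested histone genes had siControl means of at most 1.89 CPM. It is therefore no measure of histone expression in S phase.

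The promoters of the replication genes were searched for the E-box CACGTG, which USF proteins bind, and for the E2F forms TTTGGCGC, TTTCGCGC, TTTCCCGC and TTTGCCGC, on both strands, in RefSeq windows of 250 bases before to 50 bases after each start (GRCm38.p6). Matches that overlap were each counted. Windows were found for 40 of the 47 genes. An E2F form was present in 16 of the 40 genes (40.0%), against 2.60% of 27025 genes with a window, and an E-box in 7 of the 40 (17.5%), against 8.09%. These 7 are shown with flanking bases and the E-box in capitals, since this is the motif that the knocked-down factor binds.
Mcm8: gcaccgccccCACGTGctgcacgccg
Rfc1: gcccttgcagCACGTGcgtgtactgc
Rpa1: tcggaagagtCACGTGctctgcctgc
Fen1: cctggcagatCACGTGacgagagcgc
Lig1: tgtacttgagCACGTGgataagcc
Tyms: ccacttctgtCACGTGggggcggggt
Chaf1a: gctgaggtgtCACGTGacgcaagctc

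The median log2 fold change in the 5 libraries was 0.22 for the 7 genes with an E-box and 0.22 for the 33 without one. It was 0.20 for the 16 genes with an E2F form, of which 0 were called, and 0.25 for the 24 without one, of which 3 were called. A match is a description of these letters and not a bound site, and the members' share of promoters with a motif was not compared at equal base composition.

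The 250 bases before the start are printed for 4 genes, with E-boxes and E2F forms in capitals. Chaf1a (chr17:56040166-56040415, plus strand) rose and holds an E-box. Dbf4 (chr5:8422717-8422966, minus strand) and Prim1 (chr10:128014965-128015214, plus strand) rose and hold neither motif in this window. Mcm6 (chr1:128359706-128359955, minus strand) had the smallest p of the helicase genes and holds 3 E2F matches, of which 2 overlap.
Chaf1a: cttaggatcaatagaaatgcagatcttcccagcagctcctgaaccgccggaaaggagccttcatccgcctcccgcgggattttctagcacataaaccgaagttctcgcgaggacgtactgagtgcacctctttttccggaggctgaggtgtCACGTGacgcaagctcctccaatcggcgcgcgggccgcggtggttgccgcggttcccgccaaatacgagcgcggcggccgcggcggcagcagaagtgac
Dbf4: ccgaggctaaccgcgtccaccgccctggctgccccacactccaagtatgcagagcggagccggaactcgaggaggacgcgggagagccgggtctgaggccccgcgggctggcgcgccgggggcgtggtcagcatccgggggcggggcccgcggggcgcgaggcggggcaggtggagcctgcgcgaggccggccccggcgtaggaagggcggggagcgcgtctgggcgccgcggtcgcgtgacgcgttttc
Prim1: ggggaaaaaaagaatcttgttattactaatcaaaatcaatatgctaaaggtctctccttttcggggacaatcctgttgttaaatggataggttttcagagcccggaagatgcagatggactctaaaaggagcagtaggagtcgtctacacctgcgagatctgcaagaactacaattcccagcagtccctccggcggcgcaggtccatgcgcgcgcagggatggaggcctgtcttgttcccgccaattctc
Mcm6: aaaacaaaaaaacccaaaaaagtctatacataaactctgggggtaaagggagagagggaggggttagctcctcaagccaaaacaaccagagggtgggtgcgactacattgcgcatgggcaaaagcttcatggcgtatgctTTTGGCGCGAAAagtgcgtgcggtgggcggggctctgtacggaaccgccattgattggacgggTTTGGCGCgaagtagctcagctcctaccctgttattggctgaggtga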

How the data were processed

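RNA-seq counts were measured in 6 C2C12 libraries. The authors deposited whole-number counts per Ensembl gene identifier that carry no scaling. The submitters' processing notes name the build mm10 and, among the tools, HISAT2 and featureCounts. For versions, strand setting and annotation, the entry is: not given in the sources used here. The other deposited table was not used.

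Symbols, coordinates and exons came from GENCODE M21 (GRCm38), which matched 52133 of 55414 identifiers. The edgeR 4.0.16 quasi-likelihood test (filterByExpr, TMM, robust, two-sided, R 4.3.3) compared siUsf2 with siControl, with p-values adjusted by Benjamini-Hochberg (BH) across every tested gene and a threshold of 0.05. The SE is the log2 fold change over the root of F. CPM divides the count by the library total on the usual scale. A count of 0 allows up to 0.169 to 0.203 CPM (3 counts) in 5 libraries and 0.879 CPM in the library labelled siUsf2 3. Counting error alone enters these limits and the Poisson intervals. The chi-square per degree of freedom between replicates of one group was at least 4.38, so none was counted as a repeat deposit.

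Pseudogene transcripts were aligned to coding transcripts with minimap2 2.31 (at least 90% identity, 50% coverage, 150 matching bases). DESeq2 1.42.0, limma-voom (limma 3.58.1), other normalizations and filters, a replicate block and left-out libraries were alternatives, and the test was tried on simulated counts. The members and lists were chosen with earlier results of these data known. Every member is given. Values by library, or their range, are given for called members, for the member with the smallest p and the highest CPM of each role, for up to 8 members by copy share, and for the 3 highest and 3 lowest members in the library labelled siUsf2 3. From the other lists, up to 4 called genes by p are named.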

Additional observations from a re-analysis of the deposited data

How the results depend on the processing

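The number of replication genes called in the 5 libraries was 4, and moved to 9 with upper-quartile normalization, to 10 at an adjusted p below 0.1, and to between 1 (without siUsf2 1) and 10 (without siControl 3, 9 higher and Ung lower) when each library was left out. With 1 siUsf2 library left, it is assumed to vary like siControl. The median log2 fold change of the 47 genes in the 5 libraries moved beyond the spread between libraries with upper-quartile normalization alone, to 0.26, when the median of all genes was 0.03. In the 6 libraries the number called was 0, with 1 by DESeq2 and 0 to 4 (4 without siUsf2 3) when libraries were left out, and the median ranged from 0.22 to 0.46 over those libraries left out. The replicate block gave 10 calls among the 47 in the 5 libraries (9 higher, Ung lower) and 0 in the 6. In the 5 libraries siControl 3 has no partner in the block, so that this fit rests on the other 4. The labels do not state that same-numbered libraries are paired. In the 6 libraries, deviations from the group means had r across genes of -0.0738, -0.00469 and -0.0724 for same-numbered libraries. Differently numbered libraries had r of -0.0709 to 0.0744. The library labelled siUsf2 3 weighs heavily on its group mean, so these values can neither show nor exclude pairing. Log2 fold changes near 0 changed sign. Over 6 libraries these were Pcna (-0.0903 with copies added, and -0.12 to 0.80 with each library left out, negative without siUsf2 3 alone), Tyms (-0.0536 with copies added) and Fen1 (-0.0187 with no filter, -0.12 with the block, and -0.28 to 0.25 with each library left out). In the 5 libraries they were Mcm4 (-0.0451 with the block, -0.13 to 0.15 with each library left out), Pcna (0.0208 with copies added) and Fen1 (-0.00281 with the block). All genes called in the 5 libraries went from 1957 to 2967 at an adjusted p below 0.1, to 3989 with the block and to between 868 and 3560 with a library left out. In the 6 they went from 7 to 0 (upper-quartile normalization, the block, or any library but siUsf2 3 left out), 3 (library size alone), 4 (DESeq2 size factors or a 1 CPM filter), 104 (limma-voom), 116 (no filter), 119 (adjusted p below 0.1), 189 (copies added), 706 (DESeq2) and 1957 (without siUsf2 3). Upper-quartile normalization moved the share of higher calls from 43.7% to 55.5%. The depth of the library labelled siUsf2 3 limits Fen1 and Ung, with 4 and 8 counts there.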
